A study of Mus musculus with 6 samples.

Results

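The genes described here are the 46 enzymes and membrane proteins of the lysosome chosen by name: 13 proteases, 10 glycosidases, 5 sulfatases, 7 proteins of lipid and cholesterol handling, 8 membrane proteins, and progranulin, lysozyme and the transcription factor TFEB. Galns belongs to the sulfatases and Glb1 to the glycosidases, and neither has a value under its own identifier. The remaining 44 genes were listed in all 6 libraries, among 15441 genes listed in at least 1 library and 11750 listed in all of them. They were chosen by gene name and not by a cut-off on a measured value, although with earlier results of these data known. A gene's value was the largest of the summed FPKM (a count of fragments divided by transcript length and library size) of its transcript starts, the summed FPKM of its transcript ends and the FPKM of any single splicing event.

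RNA was sequenced from the whole ipsilateral cortex of male C57/BL6J mice, 6 to 8 weeks old. In the photothrombosis model, Rose Bengal in the blood is activated by a cold light through the intact skull, which clots the vessels of the sensorimotor cortex. The control mice were sham-operated, without illumination, and were taken at day 7 after the operation. The stroke groups were taken on 5 days after illumination: 1, 3, 7, 14 or 28. No allele or drug other than Rose Bengal is named for any group, and each group is 1 library of RNA pooled from 3 mice, so that no difference below has a replicate check and no p-value is given. The depth of each library is unknown. FPKM is scaled by transcript length, so that levels can be set side by side between genes. The libraries also differed in ways that are given with their values after the results: genes of hypothalamic neurons were listed in every stroke library and not in sham, and the ratios at day 1 and day 14 moved with transcript length over all genes.

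Lysosomes are acidic organelles in which proteins, sugar chains, sulfated polysaccharides and lipids are broken down by hydrolases that work at low pH. The enzymes are made with mannose-6-phosphate or other sorting signals and are carried to the organelle, while LAMP proteins line its membrane. Phagocytes of the brain, microglia and incoming macrophages, rely on this machinery to digest myelin and dead cells after an infarct. TFEB and its relatives bind the palindrome CACGTG in the promoters of many lysosomal genes, and PU.1, the master factor of myeloid cells, binds sites built around the purine-rich core GAGGAAG.

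To show these motifs, the promoters of 4 members are printed: those with the highest (Ctsd) and the lowest (Arsa) ratio to sham at day 7 among the members that hold CACGTG, and Gusb and Ctss, which rose and hold GAGGAAG. Each is the RefSeq window from 250 bases before to 50 bases after the transcript start, in GRCm38.p6 and read 5′ to 3′ on the gene's strand, at chr7:142387778-142388077 (minus) for Ctsd, chr15:89477375-89477674 (minus) for Arsa, chr5:130003000-130003299 (minus) for Gusb and chr3:95526536-95526835 (plus) for Ctss. Capitals mark CACGTG, and GAGGAAG or its reverse complement CTTCCTC.
Ctsd: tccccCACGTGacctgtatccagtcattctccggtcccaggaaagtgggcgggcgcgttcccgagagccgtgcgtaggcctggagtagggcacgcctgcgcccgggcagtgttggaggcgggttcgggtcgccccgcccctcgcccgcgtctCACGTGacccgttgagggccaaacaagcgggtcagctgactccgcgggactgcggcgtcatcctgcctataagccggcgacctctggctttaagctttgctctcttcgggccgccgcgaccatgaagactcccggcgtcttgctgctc
Arsa: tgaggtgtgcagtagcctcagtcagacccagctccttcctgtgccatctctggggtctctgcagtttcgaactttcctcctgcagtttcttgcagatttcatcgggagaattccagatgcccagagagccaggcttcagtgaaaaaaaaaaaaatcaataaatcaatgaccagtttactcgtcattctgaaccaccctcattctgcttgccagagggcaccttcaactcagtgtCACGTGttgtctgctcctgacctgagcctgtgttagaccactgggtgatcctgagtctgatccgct
Gusb: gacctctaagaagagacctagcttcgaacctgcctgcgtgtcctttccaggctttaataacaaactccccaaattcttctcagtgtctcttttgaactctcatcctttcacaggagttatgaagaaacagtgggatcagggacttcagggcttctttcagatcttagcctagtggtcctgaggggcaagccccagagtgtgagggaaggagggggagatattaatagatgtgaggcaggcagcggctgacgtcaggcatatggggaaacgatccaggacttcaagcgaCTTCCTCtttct
Ctss: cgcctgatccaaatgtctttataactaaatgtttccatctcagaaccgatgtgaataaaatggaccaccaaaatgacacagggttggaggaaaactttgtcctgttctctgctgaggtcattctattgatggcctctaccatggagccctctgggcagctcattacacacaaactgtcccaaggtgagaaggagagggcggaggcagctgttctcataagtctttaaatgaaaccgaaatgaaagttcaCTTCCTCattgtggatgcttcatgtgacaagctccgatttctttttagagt

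RefSeq promoters were found for 41 of the 46 members. Ctsb, Ctsh, Galns, Asah1 and Npc1 had no entry. On either strand, CACGTG stood in the promoter of 13 of the 41 genes (31.7%), against 8.09% of 27025 genes with a promoter of the same length. With a T before it (TCACGTG, which lies within the first motif) it stood in 11 of 41 (26.8%), against 4.29% of all genes. GAGGAAG stood in 9 of 41 (22.0%), against 15.4%. A match describes these letters in this window and is not a measured binding site.

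As a whole, the lysosomal genes were highest in the middle of the time course. Their summed FPKM was 1555 in sham and 1771, 3008, 4238, 2970 and 1631 in the 5 libraries after stroke, which are always given here in order of time. Without Ctsd and Psap, the most abundant pair, the sum went from 1014 in sham to 2507 at day 7 and 1069 at day 28. The median member stood at 15.7 FPKM in sham and 31.6 at day 7, while the median of all listed genes was 6.30 and 6.18. In such bulk tissue, more or fewer cells of a type and more or less RNA per cell cannot be told apart.

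Genes were compared with sham by the log2 ratio of FPKM + 0.1, and a member is said to have risen or fallen where this ratio passed 1 or −1. Of the 44 members, 2 rose at day 1, where 5.11% of all genes compared passed the threshold upward. At day 3, 17 rose, against a background of 8.54%. At day 7 the count was 21, against 8.53%, and at day 14 it was 15, against 8.97%. At day 28, 1 member rose, against 3.68%. No member (0 of 44) fell past −1 on any day, where 4.48%, 2.53%, 2.12%, 6.92% and 2.79% of all genes did on the 5 days. The share of members that rose was thus more than that of all genes at day 3, 7 and 14 and close to it at day 1 and 28.

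The members had median log2 ratios of 0.20, 0.60, 0.72, 0.66 and 0.05 on the 5 days. The medians of all genes compared lay between 0.01 and 0.10. The highest of the 6 libraries was day 7 for 25 of 44 members (56.8%), against 13.5% of 11565 genes, and day 14 for 12 members (27.3%), against 27.8%. Some of the members highest at day 14 were no longer so after the length correction given below. Sham was the lowest library for 21 of 44 members, against 18.47% of the 11565 genes, and the highest for 0, against 12.99%. By the rule that a gene be at least 1.5 times sham at both day 1 and day 14 and higher there than at day 3 and day 7, 0 members followed a two-phase course. The share of all genes that met this rule is not given here, so the 0 has no background beside it.

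**Figure D1:**
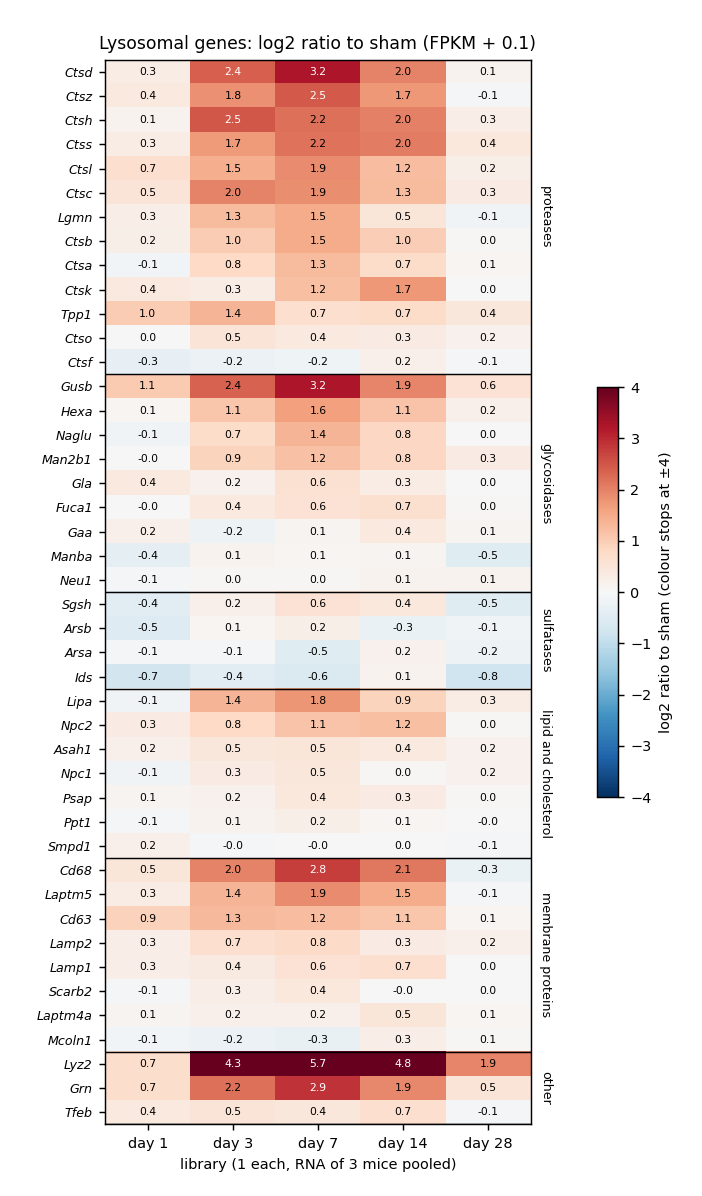
Heat map of the log2 ratio to sham of the 44 lysosomal genes (rows, grouped by role and ordered by day 7 within each) in the 5 post-stroke libraries (columns). Red cells gather at day 3, 7 and 14 among the proteases, Gusb, Cd68, Grn and Lyz2, while the 4 sulfatases stay near white or blue, down to −0.80 for Ids at day 28.

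Of the roles, the proteases held the most members that rose. Of the 13, 9, 10 and 7 rose on day 3, 7 and 14, and their median log2 ratio at day 7 was 1.5. Ctsd (ENSMUSG00000007891, chr7:142375911-142388038, minus strand of GRCm38), the main aspartic protease of the lysosome, measured 124 FPKM in sham and 151, 655, 1169, 486 and 135 FPKM after stroke. It was the 299th most abundant gene in sham and the 4th at day 7, and its share of the members' summed FPKM went from 7.95% to 27.6%. Day 3, 7 and 14 gave log2 ratios of 2.41, 3.24 and 1.98, and day 28 gave 0.13.

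Ctss (chr3:95526786-95556403) encodes cathepsin S, a cysteine protease of antigen-presenting cells that stays active at neutral pH. It measured 43.4 FPKM in sham and in turn 52.8, 143, 196, 178 and 58.8 FPKM from day 1 to day 28. Between day 7 and 14 it lost less of its level than Ctsd did, with log2 ratios to sham of 2.17 and 2.03 for Ctss and 3.24 and 1.98 for Ctsd. After the correction for transcript length given below, these were 2.08 and 1.62 for Ctss and 3.19 and 1.69 for Ctsd. Ctsz, a cysteine carboxypeptidase, followed Ctsd, with log2 ratios of 1.82, 2.47 and 1.73 at day 3, 7 and 14 and −0.06 at day 28.

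Ctsh, an aminopeptidase (chr9:90054152-90076089), stood at 6.11 FPKM in sham and 6.69, 34.8, 28.6, 25.2 and 7.30 FPKM after stroke. It was highest at day 3, as was Ctsc, the activator of the serine proteases of immune cells, whose log2 ratio was 2.00 at day 3 and 1.87 at day 7. By ends alone the ratios of Ctsc were 1.17 and 0.89 on these days, and −1.91 at day 1. Its end sums were low, at 1.05 FPKM in sham and 2.48 at day 3. The day 3 value of Ctsh depends on the events counted: its end event held 16.6 FPKM there and 28.0 at day 7, and its log2 ratio at day 3 was 1.44 by ends alone. Ctsl and Ctsb, broad cysteine proteases, and Lgmn, which cuts after asparagine, rose at day 3 and were highest at day 7, at 1.91, 1.49 and 1.5 on the log2 ratio scale. Ctsa, a carboxypeptidase that also shields β-galactosidase and neuraminidase, rose only at day 7, to 1.27.

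The remaining proteases kept other courses. Ctsk, best known as the collagenase of osteoclasts (chr3:95499256-95509362), measured 2.13 FPKM in sham and in turn 2.83, 2.64, 5.04, 7.40 and 2.16 FPKM from day 1 to day 28. It is the protease whose highest library was day 14, with a log2 ratio of 1.75, apart from Ctsf, which did not rise. The 5 fibroblast markers were Col1a1, Col1a2, Col3a1, Dcn and Lum. They summed to 24.9 FPKM in sham and 28.3, 84.9, 105, 93.1 and 25.3 FPKM after stroke, highest at day 7. Of the 5, 5, 4 and 5 passed the threshold upward on day 3, 7 and 14, against 8.54%, 8.53% and 8.97% of all genes. Ctsk was under the threshold at day 3, with 2.64 FPKM. The part of these markers in the Ctsk values was not tested. Ctsf, a cysteine protease present in many tissues (chr19:4855130-4860918), stood at 22.7 FPKM in sham and 18, 19.1, 20.1, 26.1 and 21.9 FPKM after stroke, under the threshold throughout. Ctso was also under it, at 0.02 to 0.51.

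Tpp1, the tripeptidyl peptidase lost in a childhood form of neuronal ceroid lipofuscinosis (chr7:105744811-105752235, minus strand), measured 10.4 FPKM in sham and in turn 20.9, 26.9, 16.5, 17.2 and 14.1 FPKM from day 1 to day 28. It was past the threshold at day 1, by a small margin with a log2 ratio of 1.00, and at day 3 with 1.36. By ends alone its log2 ratio at day 1 was 0.54. Transcripts that kept the intron at chr7:105750330-105751590 held 0.23 FPKM in sham and 5.35, 7.14, 8.57, 6.63 and 5.44 FPKM after stroke. Those that had removed it held 8.82 FPKM in sham and 8.94, 13.1, 7.06, 10.1 and 7.92 FPKM after stroke. The share with the intron was therefore 2.57% in sham and 35.3% to 54.8% after stroke, and this intron was chosen after its values were seen.

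The glycosidases, which cut sugar chains from glycoproteins and glycolipids, were split. Of the 9 with values, 1, 2, 4 and 2 rose from day 1 to day 14, with a median log2 ratio of 0.61 at day 7. Gusb, β-glucuronidase (chr5:129989011-130003049, minus strand), measured 2.78 FPKM in sham and 5.90, 14.6, 26.7, 11 and 4.20 FPKM after stroke. It was past the threshold from day 1 to day 14, with log2 ratios of 1.06, 2.35, 3.22 and 1.95, and stood at 0.58 at day 28. Its fall of 1.27 on the log2 scale from day 7 to day 14 was the largest of any member over that step.

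Hexa, the α-subunit of the hexosaminidase that degrades GM2 ganglioside, had log2 ratios of 1.11, 1.63 and 1.15 at day 3, 7 and 14. Naglu, which degrades heparan sulfate, and Man2b1, an α-mannosidase, rose at day 7 alone, at 1.37 and 1.18. The other 5 stayed under the threshold on all 5 days. Neu1, a neuraminidase that removes sialic acid (chr17:34931253-34935953), measured 14.3 FPKM in sham and 13.6, 14.6, 14.7, 15.8 and 15.7 FPKM after stroke, the narrowest range of all members, at 1.16 times between highest and lowest. Gaa, the glycogen-cleaving α-glucosidase (chr11:119267887-119285454), had the highest sham level of the group at 50.2 FPKM, with 57.4, 43.5, 54.7, 65.3 and 53.6 FPKM after stroke; by ends alone its day 14 log2 ratio was −1.02. Manba, a β-mannosidase (chr3:135485611-135571404), stood at 3.12 FPKM in sham and 2.4, 3.43, 3.33, 3.39 and 2.20 FPKM after stroke. Fuca1 and Gla, which remove fucose and α-galactose, reached 0.65 at day 14 and 0.61 at day 7 on the log2 ratio scale.

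The sulfatases take sulfate groups off polysaccharides and sulfatide, the sulfated lipid of myelin. Of the 4 with values, 0 rose on any day, where 3.68% to 8.97% of all genes did. For so few genes this count is near the background. At day 1 and at day 28, 4 of 4 lay below sham, with medians of −0.47 and −0.35. Of all genes compared, 51.5% and 53.8% lay above sham on these days. None of the 4 passed −1, and they are few genes. Ids, iduronate sulfatase (chrX:70343069-70365084, minus strand), measured 49.7 FPKM in sham and in turn 29.8, 36.5, 33.4, 54.4 and 28.5 FPKM from day 1 to day 28. It had the lowest ratio of all 44 members at day 1, 3, 7 and 28, where the log2 ratio was −0.74, −0.45, −0.57 and −0.80, short of the threshold on each day. The sham and day 14 libraries were the high ones and the other 4 lay under both.

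Arsa, which desulfates sulfatide (chr15:89472476-89477425, minus strand), stood at 10.5 FPKM in sham and 9.97, 9.92, 7.46, 11.8 and 9.03 FPKM after stroke. It was lowest at day 7, when most other members were highest. These values are those of its end events. Its start events summed to 6.13 FPKM at day 7 and to 0 in every other library. Arsb, which acts on dermatan sulfate (chr13:93771630-93943016), measured 24.5 FPKM in sham and 17.2, 25.6, 28.8, 20.5 and 22.4 FPKM after stroke. Sgsh, a heparan sulfamidase (chr11:119343425-119355536, minus strand), was the least abundant member, with 1.42 FPKM in sham and 1.02, 1.64, 2.15, 1.92 and 0.98 FPKM after stroke. The ratios of these 3 genes lay between −0.51 and 0.56.

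Among the 7 genes of lipid and cholesterol handling, 1, 2 and 1 rose on day 3, 7 and 14. Lipa, the acid lipase that frees cholesterol from its esters (chr19:34492318-34527474, minus strand), measured 4.80 FPKM in sham and in turn 4.33, 12.6, 16.7, 9.0 and 5.93 FPKM from day 1 to day 28. Its log2 ratio passed the threshold at day 3 and 7, with 1.37 and 1.78. Npc2 and Npc1 hand the freed cholesterol to each other and out of the lysosome. Npc2 rose at day 7 and 14, to 1.15 and 1.21, whereas Npc1 stood at 0.46 and 0.05.

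Psap, the precursor of the saposins that present sphingolipids to their hydrolases (chr10:60277627-60302597), was the most abundant member in sham. It measured 417 FPKM in sham and 453, 467, 562, 524 and 427 FPKM after stroke, with a log2 ratio of 0.43 at day 7. Smpd1, acid sphingomyelinase (chr7:105554360-105558389), stood at 36.5 FPKM in sham and 42.2, 35.5, 35.9, 36.7 and 34.8 FPKM after stroke, and was the one member highest at day 1. Asah1, the acid ceramidase, and Ppt1, which removes palmitate from proteins, reached at most 0.47 and 0.24.

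**Figure D2:**
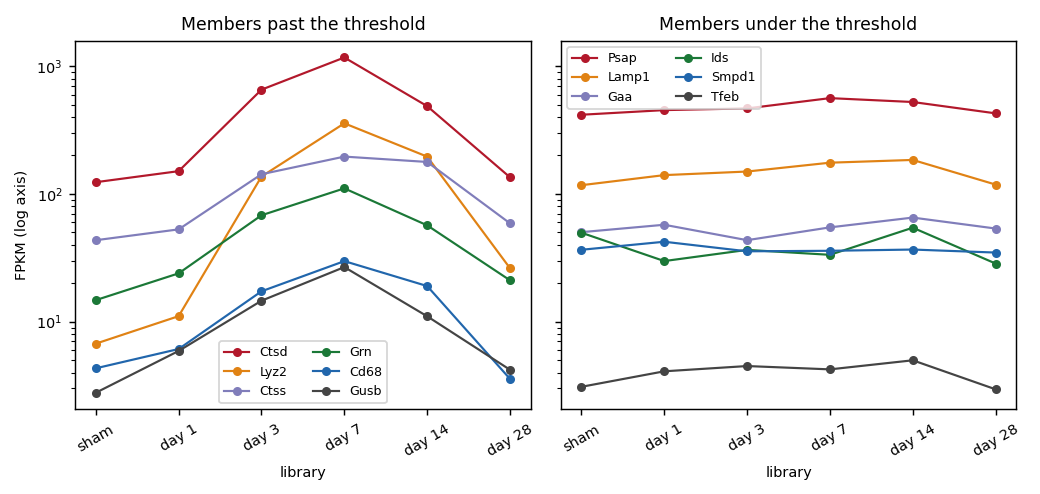
FPKM (log axis) of 12 members in the 6 libraries, 1 point per library. On the left Ctsd, Lyz2, Ctss, Grn, Cd68 and Gusb are all highest at day 7, up to 1169 FPKM for Ctsd; on the right Psap, Lamp1, Gaa, Ids, Smpd1 and Tfeb stay within a log2 ratio of −0.80 to 0.67.

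Of the 8 membrane proteins, Cd68, Laptm5 and Cd63 passed the threshold at day 3, 7 and 14, and the other 5 did not on any day. Cd68, a heavily glycosylated protein of macrophage lysosomes (chr11:69664213-69666153, minus strand), measured 4.32 FPKM in sham and in turn 6.11, 17.3, 29.8, 19.0 and 3.56 FPKM from day 1 to day 28, the last below sham. Laptm5, a lysosomal protein of blood-derived and microglial cells, had log2 ratios of 1.36, 1.89 and 1.47. Cd63, a tetraspanin of late endosomes and exosomes (chr10:128900989-128912822), was early: it measured 43.4 FPKM in sham and already 82.0 at day 1, then 107, 102, 93.6 and 46.3 FPKM. Its log2 ratio at day 1 was 0.91, under the threshold.

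Lamp1, a main glycoprotein of the lysosomal membrane (chr8:13159161-13175338), measured 117 FPKM in sham and 140, 150, 176, 185 and 118 FPKM after stroke, and reached a log2 ratio of 0.66 at day 14. Scarb2, the receptor that carries β-glucocerebrosidase to the lysosome (chr5:92441314-92506833, minus strand), stood at 27.0 FPKM in sham and 25.8, 32.8, 36.2, 26.8 and 27.3 FPKM after stroke. Mcoln1, the calcium channel of the lysosomal membrane (chr8:3500457-3515232), stood at 15.8 FPKM in sham and in turn 14.8, 13.4, 12.8, 19.1 and 16.5 FPKM from day 1 to day 28. Like Arsa it was lowest at day 7 and highest at day 14, although by ends alone its day 14 log2 ratio was −0.29. Laptm4a lay between 0.09 and 0.47 on the log2 ratio scale.

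Lamp2, whose splice forms serve the membrane, chaperone-mediated autophagy and macroautophagy, moved differently at its 3 most abundant transcript ends (chrX:38401357-38456454, minus strand). The distal one of these, at 38401357 to 38402281, held 7.51 FPKM in sham and 7.04, 7.80, 5.04, 6.34 and 7.26 FPKM after stroke. The middle one, at 38405062 to 38405571, held 8.73, 12.4, 16.1, 19.4, 14.4 and 11.6 FPKM in the same order. The proximal one, at 38419507 to 38421851, held 13.2, 16.2, 22.4, 26.5, 16.5 and 15.1 FPKM. A further end inside the gene held at most 0.19 FPKM, and one outside it was listed at day 3 alone. Of the 3 together, the distal end made up 25.5% in sham, 9.91% at day 7 and 21.4% at day 28, and at day 7 its log2 ratio was −0.56 against 1.14 for the middle end. The total for Lamp2 reached 0.78 and stayed under the threshold. The ends were looked at one by one after the totals were known.

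Lyz2, the lysozyme of macrophages and neutrophils (chr10:117277331-117282321, minus strand), had the widest range of all members. It measured 6.73 FPKM in sham and in turn 11, 137, 357, 196 and 26.2 FPKM from day 1 to day 28, and moved from the 6399th to the 51st most abundant gene between sham and day 7. It was the one member past the threshold at day 28, with a log2 ratio of 1.94, although 5.56% of its day 7 rise in FPKM was left there. Its neighbour Lyz1 is a close copy, and how reads were split between them is not known. Grn, progranulin, a secreted and lysosomal glycoprotein that is processed into granulins (chr11:102430315-102437048), measured 14.7 FPKM in sham and 23.9, 68.1, 111, 56.8 and 21.1 FPKM after stroke. Its log2 ratio was 2.20, 2.90 and 1.94 at day 3, 7 and 14. Tfeb itself (chr17:47737030-47792419) was low, at 3.09 FPKM in sham and 4.09, 4.49, 4.23, 4.99 and 2.95 FPKM after stroke, with log2 ratios up to 0.67.

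From one time point to the next most members moved the same way. From day 1 to day 3, 38 of 44 went up, against 52.6% of all genes, by a median log2 step of 0.48. From day 3 to day 7, 33 went up, against 51.6% of all genes, with Lyz2 gaining the most at 1.38 and Tpp1 falling by 0.70 on the log2 scale. From day 7 to day 14, 15 went up and 29 down, where 51.2% of all genes went up. From day 14 to day 28, 3 went up and 41 down, with a median step of −0.63 and −2.90 for Lyz2, where 45.5% of all genes went up. Among the 22 members that had risen on any day, 13 were past the threshold at all of day 3, 7 and 14. Among the members past the threshold at day 7, the share of the day 7 difference in FPKM that was left at day 28 ran from −4.76% for Lgmn, which was then below sham with Ctsz, Cd68 and Laptm5, to 19.9% for Man2b1, with 1.08% for Ctsd and 10.1% for Ctss.

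Whether a promoter held a motif did not go the same way for both motifs at day 7. Members with CACGTG had a median log2 ratio of 0.60, with 5 of 12 past the threshold, against 0.96 and 14 of 28 for those without it, leaving out Glb1, which has no value. They ran from −0.48 for Arsa to 3.24 for Ctsd, the first pair of promoters printed above. Members with GAGGAAG had a median of 1.78, with 8 of 9 past the threshold, against 0.56 and 11 of 31. They were Cd63, Ctsc, Ctsk, Ctss, Gusb, Laptm5, Lipa and Man2b1, and Gla, which stood at 0.61. At day 7, 8.53% of all genes compared rose. The share that rose among all genes holding either motif is not given here, so the counts by motif have no background of their own. These counts are descriptions of few genes, were made with the ratios known, and were not tested.

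Ctsd was also read by its start and end events apart, since the start events carrying its identifier lie outside its annotated span. They summed to 5.73 FPKM in sham and 8.24, 6.58, 7.23, 11.3 and 4.02 FPKM after stroke. Its 2 end events lie inside the span and summed to the values given above, 124 FPKM in sham and 1169 at day 7. The log2 ratio at day 7 was thus 3.24 by ends and 0.33 by starts, and no start event inside the gene was listed. For 24 of the 44 members, start and end sums were within 10% of each other in all 6 libraries. Ctsl had no start event and Laptm5 no end event in any library, and none of the 44 lost over 10% of its value when events outside the span were left out.

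**Figure D3:**
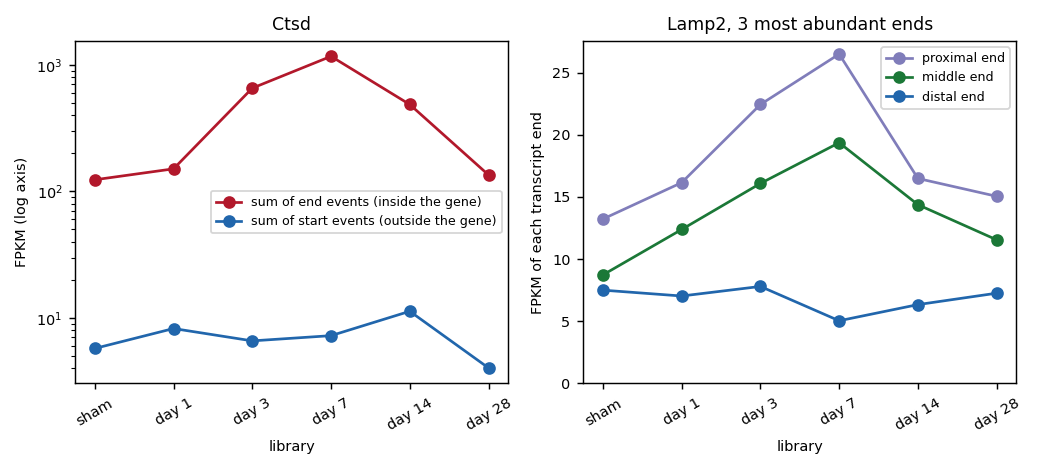
FPKM by event in the 6 libraries, 1 point per library. On the left (log axis) the Ctsd end events climb from 124 to 1169 FPKM at day 7 while its start events stay between 4.02 and 11.3; on the right the distal one of the 3 most abundant Lamp2 ends dips to 5.04 FPKM at day 7 as the others reach 19.4 and 26.5.

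Related genes that are not members were compared by lists. Of 21 other lysosomal enzymes and cofactors, 20 could be compared at day 7 and 4 rose, among them Dnase2a, an acid nuclease, at 1.45 and Acp5, an acid phosphatase not listed in sham and at 2.50 FPKM at day 7. The lowest was Hgsnat at −0.08, and the median was 0.58. Of the V-ATPase, the pump that acidifies lysosomes and, in neurons, synaptic vesicles, 18 of 19 subunits could be compared at day 7, with a median of −0.09. Of these, 2 rose, Atp6ap1 at 1.21 and Atp6v0d2, which was not listed in sham and stood at 1.36 FPKM, and 1 fell, Atp6v1g2, the neuronal G subunit, at −2.07.

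The 19 genes of lysosomal transport and sorting with a value had 0 past the threshold in either direction at day 7 (median 0.15, from −0.97 for Cln3 to 0.92 for Nagpa and 0.83 for Slc38a9). The same was so for 12 genes of the TFEB family and nutrient signalling (median 0.01, from −0.25 for Mtor to 0.47 for Lamtor2 and 0.58 for Flcn) and for 14 autophagy genes (median 0.01, from −0.82 for Gabarapl1 to 0.48 for Atg7 and 0.67 for Becn1). Among 6 inhibitors of cathepsins, Cst7 rose to 4.81, from 0.40 to 14.0 FPKM, and Serpina3n to 2.85, while Cst3, cystatin C, the most abundant, stood at −0.45. All these counts are of few genes and stand beside the 8.53% of all genes that rose and the 2.12% that fell at day 7, so that the V-ATPase counts and those of 0 are near the background.

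**Figure D4:**
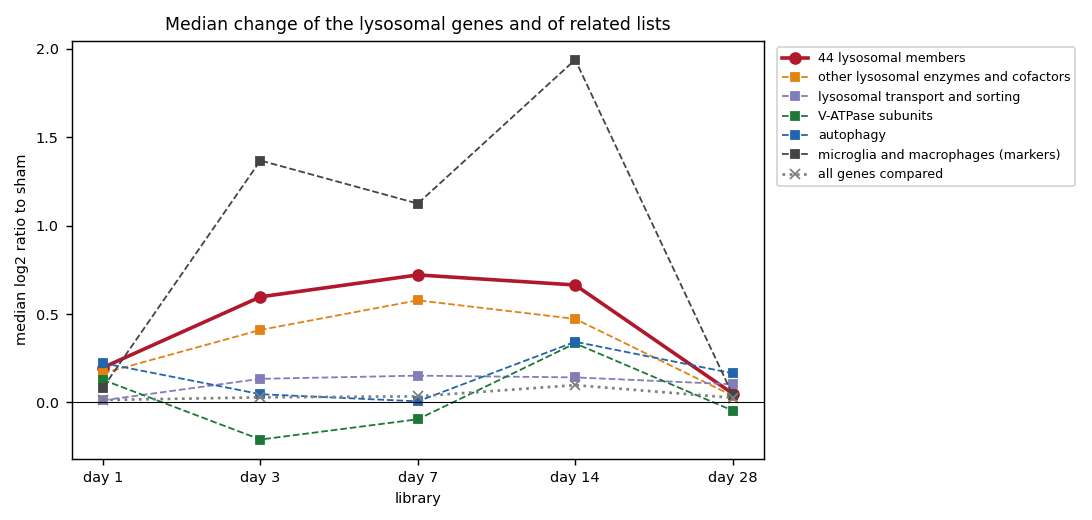
Median log2 ratio to sham (y axis) of the 44 lysosomal genes, 4 related lists, the microglia and macrophage markers and all genes compared, in the 5 post-stroke libraries. The lysosomal genes go from 0.20 at day 1 to 0.72 at day 7 and 0.05 at day 28; V-ATPase and autophagy genes are near 0 at day 7, and the markers are above the lysosomal genes at day 3, 7 and 14.

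Markers of several cell types moved over the same libraries. The summed FPKM of 12 microglia and macrophage markers was 132 in sham and 146, 377, 570, 445 and 153 after stroke, with 6 of 9 markers compared past the threshold upward on day 3, 5 of 9 on day 7 and 6 of 10 on day 14. Their median ratio was 1.37, 1.12 and 1.94 on day 3, 7 and 14, and 11, 21 and 6 of the 44 members lay above it. At day 7 Lyz2 and Ctsd lay above every one of these markers, Ctsd narrowly over Adgre1. Among the defining markers, Itgam had no value, and Tmem119 was not listed in sham and reached at most 0.96 FPKM. Cx3cr1 was not listed in sham or at day 3, 7 or 28. P2ry12 had log2 ratios of −1.35, 0.26, −0.03 and −0.44 at day 1, 3, 7 and 14. At day 7 and 14, Siglech stood at −0.72 and 0.49, and Sall1 at 0.68 and −0.49. Of the summed 570 FPKM at day 7, C1qa held 259 and Tyrobp 146. The part of these markers in the lysosomal values was not tested.

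Of the other cell types, 7 neuron markers summed to 1575 FPKM in sham and 1428, 1204, 1167, 1003 and 1328 after stroke, with 6 of them listed in every library. The 6 astrocyte markers summed to 551 in sham and between 582 and 1274 after stroke, where Gfap passed the threshold from day 1 to day 14, and 5 oligodendrocyte markers summed to between 1418 and 2018. Endothelial markers summed to 8.94 to 19.3 FPKM and choroid plexus markers to 184 to 565. Neutrophil markers, whose cells also carry Lyz2, summed to 18.5 FPKM at day 1 and 9.41 at day 14 and at most 1.59 elsewhere. Monocyte markers reached at most 5.98 and lymphocyte markers 2.15 FPKM, with none listed in sham. Markers of hypothalamic neurons, which a cortex should mostly lack, were not listed in sham and summed to 54.3, 10.01, 33.3, 20.4 and 4.49 FPKM after stroke. The part of any of these in the lysosomal values was not tested.

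The ratio to sham also moved with transcript length over all genes at day 1 (Spearman's rho −0.25 over 11771 genes) and day 14 (−0.41 over 12025), with the shorter genes higher, and less at day 3, 7 and 28 (0.003, −0.09 and −0.04). The longest transcripts of the members have a median of 2831 nt, from 1230 for Cd68 to 6168 for Ctsl, and that of all expressed genes is 3396 nt. After the trend over length was taken out, the members that rose were 1, 16, 21, 14 and 1 on the 5 days, the all-gene shares became 4.82%, 8.13%, 8.23%, 7.39% and 3.51%, and the median at day 14 went from 0.66 to 0.44. Of the 12 members highest at day 14, Ctsk, Gaa, Arsa, Ids and Mcoln1 stayed so. Lamp1, Npc2 and Fuca1 were then higher at day 7 (0.53, 1.15 and 0.52) than at day 14 (0.39, 1.14 and 0.43). Tfeb and Laptm4a were highest at day 3, Neu1 at day 28, and Ctsf was below sham.

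**Figure D5:**
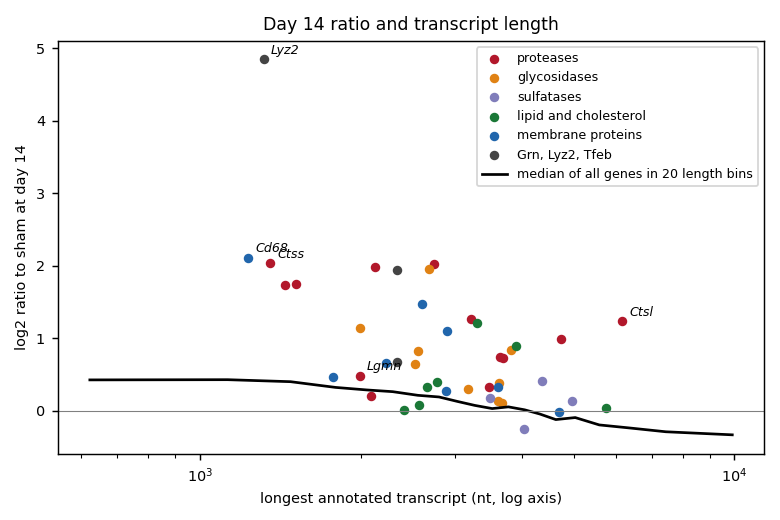
Log2 ratio to sham at day 14 (y axis) of the 44 lysosomal genes, coloured by role, against the length of the longest annotated transcript (x axis, log scale); the line joins the medians of all genes in 20 length bins. The line falls from 0.43 in the shortest bin to −0.33 in the longest, and most members lie above it, Lyz2 the farthest at 4.84.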

How the data were processed

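RNA of the ipsilateral cortex, pooled from 3 mice per group, was sequenced as 6 libraries with reads of 150 bases (stated average depth 33.6 M reads). The authors deposited, for each library, FPKM per transcript start, transcript end and splicing event on mm10, with events at 0 left out. The submitters' processing notes name Trimmomatic 0.30, HISAT2 2.0.1 and HTSeq 0.6.1; the tool that made the event FPKM is not given in the sources used here. Events were assigned by their Ensembl identifiers, and positions and lengths came from GENCODE M21 (GRCm38, the same build) and promoters from RefSeq.

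Genes that reached an FPKM of 1 in either library were compared by log2((FPKM + 0.1)/(sham FPKM + 0.1)), which understates the change of low genes, with a threshold of 1. With 1 library per group no test was possible. The length correction used the median trend in 20 bins. The members, lists, rules and motifs were chosen with earlier results of these data known.

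The 25 genes with all 6 values are Ctsd, per role those with the highest and lowest sham FPKM and the largest and smallest day 7 ratio, and the 3 largest and 3 smallest ratios of each day; from each pathway list, the 2 largest and the smallest ratio at day 7 were named, except where a gene is not reported here. Lamp2 and the Tpp1 intron were added after their values were seen. Alternatives covered the gene value (starts, ends, the larger of both, events inside the span), the pseudocount (0.01, 1), the filter, the scaling, transcript length and the threshold (0.5, 2). The code was checked on simulated data. The code ran in Python 3.11.15 with pandas 2.3.3 and numpy 2.4.6 (scipy 1.17.1, matplotlib 3.10.9).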

Additional observations from a re-analysis of the deposited data

Results flagged for a closer look

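One value outside the comparisons stands out. Glb1, β-galactosidase, has no event under its own identifier, but a transcript end within its last part, at chr9:114473838-114474377, is listed under the identifier of Tmppe, a gene that lies within the span of Glb1 and ends at 114407276, far from this end. This end event held 7.17 FPKM in sham and in turn 6.46, 8.63, 12.4, 9.85 and 6.68 FPKM from day 1 to day 28. Like 25 of the 44 lysosomal genes with a value, it was highest at day 7, where it was above its sham level. It was not counted among the members.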

How the results depend on the processing

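No paired analysis was possible because each group is 1 library, and for the same reason no library could be left out. The medians of the members' ratios stayed above 0 under every alternative run, between 0.68 and 0.79 at day 7 and between 0.44 and 0.67 at day 14, and the members highest at day 7 numbered 24 to 27. For each named gene with all 6 values, the ratio rerun was that at its highest day after stroke. Of these ratios, 5 changed sign, all at day 14 and under the threshold in the report. By starts Ids went from 0.13 to −6.85 and Neu1 from 0.14 to −0.02. By ends Gaa went from 0.38 to −1.02 and Mcoln1 from 0.27 to −0.29. With the length correction Ctsf went from 0.20 to −0.08. Ratios on other days could change sign too. By starts Arsa went from −0.48 to 5.96 at day 7, and Sgsh from 0.41 to −3.58 at day 14. By start sums alone, 2, 1, 3 and 1 members fell at day 1, 7, 14 and 28, and by end sums alone 1 fell at each of day 1, 3, 7 and 14, in place of 0. Ctsd by starts alone had a log2 ratio of 0.33 at day 7, since its start events lie outside the gene. The count of members that rose at day 1, 2 in the report, was 1 by end sums, with scaling to the median ratio and after the length correction, and 0 with a pseudocount of 1. With a threshold of 0.5, 7, 24 and 3 members rose at day 1, 14 and 28, and 2, 1 and 1 fell at day 1, 7 and 28. With a threshold of 2, the counts that rose were 0, 5, 8, 4 and 0 on the 5 days. The shares of all genes past 0.5 and 2 are not given here, so the counts at these thresholds cannot be set against a background. Under the remaining alternatives the counts stayed within 1.5 times those in the report. As depth is unknown, low values such as Sgsh, at 0.98 to 2.15 FPKM, have no interval.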

Other observations

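Grn differed between libraries in its splice forms as well as its level. Transcripts that kept its intron at chr11:102435491-102435709 held 8.84 FPKM at day 1 and 9.87 at day 14 and were not listed in the other 4 libraries. A form with a later splice site, whose exon starts at 102435769, held 31.2 FPKM at day 7, 1.19 in sham and at most 0.01 elsewhere. Of the 6 cathepsin inhibitors, Serpina3n and Cst3 were lower at day 7 than at day 3, and the other 4 were higher. Serpina3n stood at 5.30 FPKM in sham and 37.5, 68.0, 38.8, 62.0 and 11.8 FPKM after stroke, and Cst3 at 1035 in sham and 1125, 1321, 758, 1735 and 1226. Both were lower at day 7 than at day 3 and day 14. Lamtor1, of the nutrient-sensing complex on the lysosome, stood at 19.9 FPKM in sham, 18.4 at day 7, 50.1 at day 14 and 41.2 at day 28. These genes were singled out after their values were seen, and the differences have no replicate check.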
